A study of Mus musculus with 6 samples.

Results

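The 10 genes described here are targets of the transcription factor p53, chosen by symbol from the deposited count table: Cdkn1a, Mdm2, Ccng1, Phlda3, Sesn1, Bax, Trp53inp1, Zmat3, Eda2r and Btg2. They are 10 of 55450 genes in the table and 10 of the 14539 genes with enough counts to be tested. Poly(A) RNA was sequenced from 6 mice of the strain given as C57BL/J, and the tissue was the left lobe of the liver. The 3 LKB1 knockout (KO) mice carried LKB1 fl/fl alleles, with the gene Stk11 flanked by loxP sites, and the 3 wild-type (WT) mice had the normal gene. Both groups were injected with AAV8 Cre at 6 weeks of age, so the viral recombinase was present in the WT mice too, and their livers were collected 4 weeks after that, when the mice were 10 weeks old. The promoter that drove Cre and the sex of the mice are not given in the sources used here. A cell that the virus did not reach keeps its floxed gene, and the share of such cells is not given either.

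p53 is held at a low level in resting cells, mostly because the ubiquitin ligase Mdm2 marks it for degradation. After DNA damage, oncogene activity or other stress p53 accumulates and binds pairs of short half-sites in the DNA of its target genes, whose products halt the cell cycle, repair damage, limit growth or start apoptosis. Many of these targets also have other inducers, among them stress kinases, cAMP signalling and nutrient-sensing factors, so the RNA of a target gene is a reading of that gene and not of p53 alone. LKB1 is a kinase that phosphorylates AMPK and related kinases, including the salt-inducible kinases, which in hepatocytes restrain the cAMP-responsive factor CREB by acting on its coactivators.

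The sequence immediately upstream is shown for the 2 genes with the largest fold changes, Cdkn1a and Btg2. RefSeq start-site windows (GRCm38.p6, 250 bases before to 50 bases after a start) were found for 8 of the 10 genes. The motifs were chosen after the windows had been seen, so a different motif in each gene is a description only. The p53 full site and the cAMP response element were each found in 1 of the 10 windows of these 8 genes. A window of Cdkn1a holds a p53 full site of 20 bases, which is 2 abutting half-sites with at most 1 mismatch outside their cores. Such a site was found in 18 of 32851 windows of all genes, or 0.0548%. In the window of Btg2 the palindromic cAMP response element TGACGTCA was found, which stands in 588 of the 32851 windows, or 1.79%. Both sequences below run 5′ to 3′ and cover the 250 bases before the start. Capitals mark the p53 full site and a separate p53 half-site in Cdkn1a and the cAMP response element in Btg2.
Cdkn1a, chr17:29090729-29090978, plus strand: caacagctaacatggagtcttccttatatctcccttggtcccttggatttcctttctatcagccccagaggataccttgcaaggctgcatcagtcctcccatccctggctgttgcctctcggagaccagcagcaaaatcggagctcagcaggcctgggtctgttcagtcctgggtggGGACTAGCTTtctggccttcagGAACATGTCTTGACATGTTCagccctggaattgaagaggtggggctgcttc
Btg2, chr1:134079156-134079405, minus strand: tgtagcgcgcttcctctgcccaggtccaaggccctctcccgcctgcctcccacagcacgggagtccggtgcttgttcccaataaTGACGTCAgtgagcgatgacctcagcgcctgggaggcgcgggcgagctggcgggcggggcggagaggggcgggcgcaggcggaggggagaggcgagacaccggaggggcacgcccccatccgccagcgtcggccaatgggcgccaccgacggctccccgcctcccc

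An exact p53 half-site of 10 bases was found in 5 of the 10 windows of these 8 genes, 1 window each of Cdkn1a, Mdm2, Ccng1, Bax and Sesn1, and in 8.36% of all windows. Cdkn1a and Sesn1 have 2 windows each. The half-site reads the same on both strands in its consensus form, and the full site contains one of the Cdkn1a half-sites. The single half-sites of the other genes are shown with 10 flanking bases on each side and the half-site in capitals, so that a half-site alone can be set beside the full site of Cdkn1a.
Mdm2: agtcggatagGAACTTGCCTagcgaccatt
Ccng1: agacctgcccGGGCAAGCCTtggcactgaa
Bax: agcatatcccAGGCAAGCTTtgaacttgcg
Sesn1: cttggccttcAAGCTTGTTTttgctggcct
Positions are chr10:117710935-117710944 for Mdm2, chr11:40755462-40755471 for Ccng1 and chr7:45467090-45467099 for Bax, all on the minus strand, and chr10:41887266-41887275 on the plus strand for Sesn1. None of these motifs was found in the windows of Phlda3 and Eda2r. A match describes the letters only, and sites outside the windows, such as those in introns, were not searched.

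Total counts per library ran from 47659122 to 56147667, and levels are given as normalised counts (CPM, with library sizes scaled in edgeR). The deleted gene was checked first. Stk11 stood at 22.1, 14.4 and 11.4 CPM in KO and at 66.1, 64.2 and 69.7 CPM in WT, and it fell by 2.06 ± 0.25 on the log2 scale (SE; adjusted p = 0.0167, edgeR quasi-likelihood). Its adjusted p-value was 0.0607 to 0.104 in the refits without KO 2, KO 3, WT 2 or WT 3. KO 1 and WT 1 held 42472 and 29243 Xist counts and at most 6 counts over 4 Y-linked genes, and are called the Xist pair. The other 4 libraries held 6146 to 8199 Y-linked counts and at most 16 Xist counts, and are called the Y-linked libraries. Across genes, which are not replicates, log2 CPM of KO 2 and 3 had a Pearson correlation of 0.983, and KO 1 had 0.943 and 0.959 with them and 0.968 with WT 1. Hepatocyte markers were abundant in every library. Their sum over 10 genes, with Alb the most abundant in each library, was 34903 to 83580 CPM in KO and 89282 to 131002 CPM in WT. The 10 markers did not move one way: 4 had all KO libraries above WT and 5 had all below, beside 16.9% and 15.5% of all genes tested. In edgeR 2 rose and 0 fell, beside 2.15% and 1.22% of all genes tested. The 2, named after their values were seen, were Tat and Ass1. Both calls were kept without KO 1 and lost when any other single library was left out, with adjusted p-values of up to 0.186 and 0.178.

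Of the 10 p53 targets, 1 rose in KO, Btg2, and 0 fell, at an adjusted p-value under 0.05 in edgeR. Over all genes tested 3.37% passed this threshold, 2.15% as higher and 1.22% as lower. Btg2, Cdkn1a and Trp53inp1 had all 3 KO libraries above the 3 WT libraries, and Sesn1 had all 3 below. Separation without overlap was found for 32.4% of all genes tested, 16.9% with KO above and 15.5% with KO below. The same 4 genes had an unadjusted p-value under 0.05, as did 26.3% of all genes tested. The other 6, Mdm2, Ccng1, Bax, Zmat3, Phlda3 and Eda2r, overlapped between the groups. The median log2 fold change of the 10 genes was 0.86, beside 0.01 for all genes tested. DESeq2 placed 4 of the 10 past the threshold, where 15.8% of all genes passed, and limma voom 0, where 2.97% passed. With the Xist or Y-linked state as a term in edgeR there were 3, where 10.3% passed, and without KO 1 there were 4, where 30.2% passed.

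**Figure D1:**
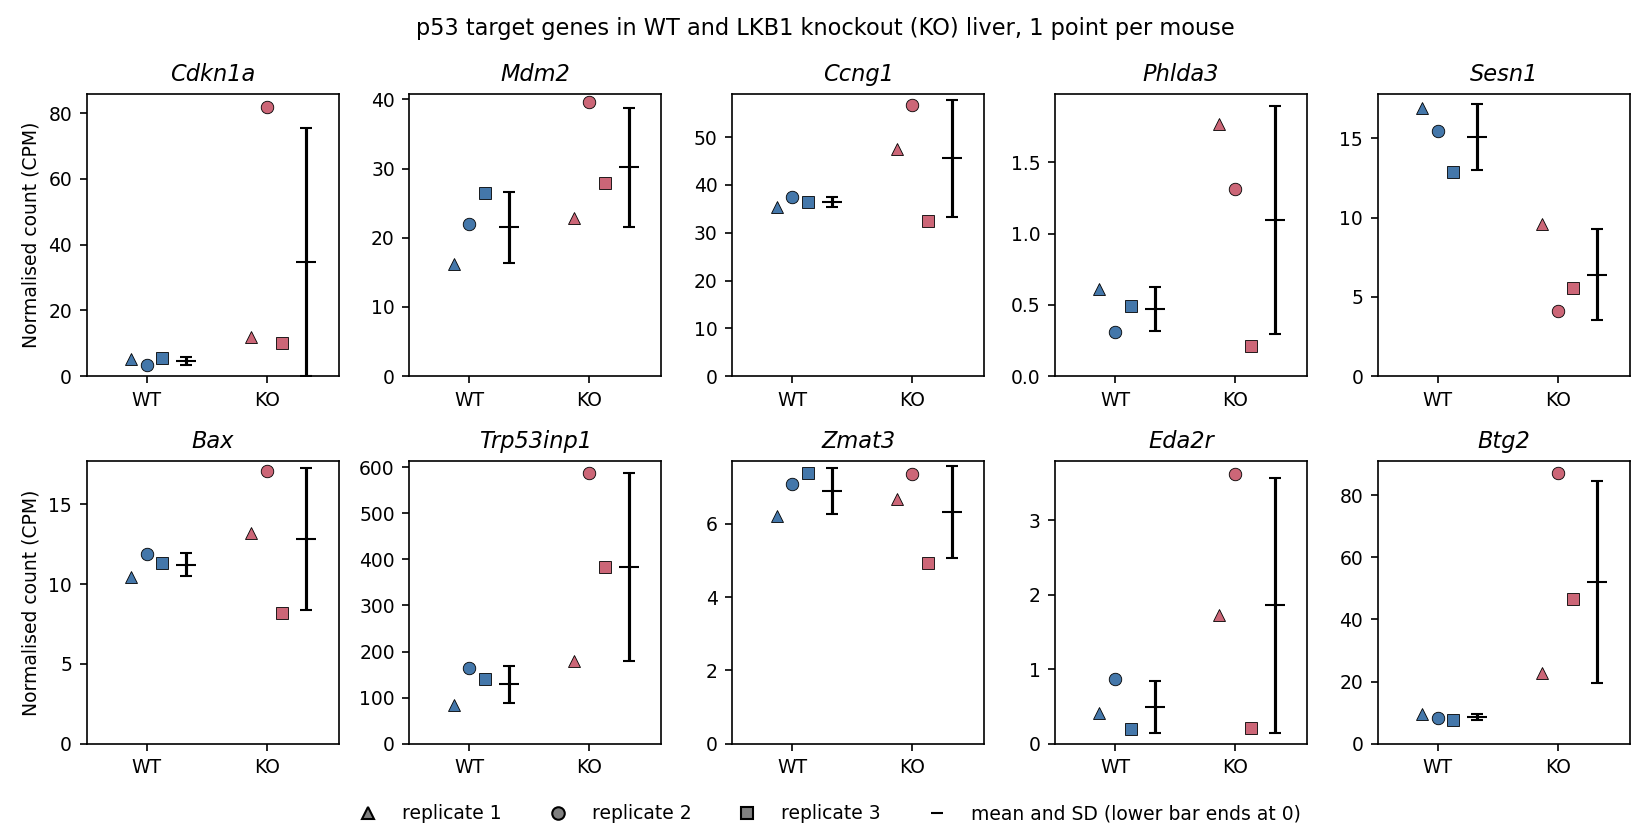
Normalised counts (CPM, linear axes that start at 0) of the 10 p53 target genes, with 1 point per mouse, the replicate number given by the marker shape, and the mean and SD of each group beside the points. KO 2 is the highest of the 6 libraries for 7 of the 10 genes, and Btg2, Cdkn1a, Trp53inp1 and Sesn1 show no overlap between the groups.

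Among the growth arrest genes, Btg2 gave the clearest difference. Btg2 (ENSMUSG00000020423.6, GRCm38 chromosome 1, 134075170 to 134079120, minus strand, protein-coding) encodes an antiproliferative protein that recruits the deadenylase complex which shortens mRNA tails. It is also an immediate early gene that responds quickly to many signals. It stood at 22.7, 87.1 and 46.5 CPM in KO replicates 1 to 3 and at 9.70, 8.29 and 7.68 CPM in WT replicates 1 to 3. All 3 KO libraries were well above the WT libraries, which lay close together, and KO 1 was the nearest to them. The mean was 52.1 ± 32.5 CPM in KO and 8.56 ± 1.04 CPM in WT (SD, n = 3 each), a 6.09-fold ratio of means. Btg2 rose by 2.61 ± 0.46 on the log2 scale (SE; adjusted p = 0.0386 in edgeR). Each of 5 refits that left out 1 library ended the call, with adjusted p-values of 0.0593 without KO 2, 0.147 without KO 3, and 0.0864, 0.195 and 0.187 without WT 1, 2 and 3. Without KO 1, where 30.2% of all genes tested passed, the adjusted p-value was 0.00194. The log2 fold change over the 6 refits stayed between 2.02 and 2.96. Over all 15 alternatives the adjusted p-value ran from 1.30e-07 in DESeq2 to 0.195, and it was 0.0532 in limma voom.

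Cdkn1a had the largest fold change of the 10 genes but did not pass the threshold. Cdkn1a (ENSMUSG00000023067.14, chromosome 17, 29090976 to 29100727, plus strand, protein-coding) encodes p21, an inhibitor of cyclin-dependent kinases and the main mediator of p53-dependent arrest before DNA replication. It stood at 12.0, 81.9 and 10.2 CPM in KO and at 5.2, 3.30 and 5.54 CPM in WT. KO 2 was 7.40 times the median of the other KO libraries, which were themselves above every WT library. The mean was 34.7 ± 40.9 CPM in KO and 4.68 ± 1.21 CPM in WT (SD, 3 mice each). Its fitted log2 fold change was 2.89 ± 0.85 (SE; adjusted p = 0.0965 in edgeR). Without KO 2 it was 1.25, with an adjusted p-value of 0.104. Over the 15 alternatives the adjusted p-value ran from 0.0216 in DESeq2 to 0.291 without WT 2. Only the total over the gene is known, so transcripts that begin at the upstream start, beside the p53 full site, and at the start 2790 bases further on cannot be told apart.

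Ccng1 did not differ beyond the spread of the KO libraries. Ccng1 (ENSMUSG00000020326.7, chromosome 11, 40748552 to 40755311, minus strand) encodes cyclin G1, which binds a phosphatase subunit and takes part in the feedback between Mdm2 and p53. It stood at 47.5, 56.8 and 32.5 CPM in KO and at 35.3, 37.4 and 36.4 CPM in WT. KO 3 was the lowest of the 6 libraries and KO 2 the highest. The SD was 12.2 CPM in KO and 1.05 CPM in WT (n = 3 each), and the log2 fold change was 0.33 ± 0.20 (SE; adjusted p = 0.346 in edgeR).

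Mdm2, the ubiquitin ligase that degrades p53 and is itself induced by it, was also within the spread. Mdm2 (ENSMUSG00000020184.15, chromosome 10, 117688875 to 117710758, minus strand) stood at 22.9, 39.7 and 28.0 CPM in KO and at 16.2, 22.0 and 26.4 CPM in WT. KO 1 fell between WT 2 and WT 3, so the groups overlapped. Its log2 fold change was 0.49 ± 0.25 (SE; adjusted p = 0.271 in edgeR), and 36.0% of all genes tested had a larger change in either direction.

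Of the genes tied to cell death, Trp53inp1 had no overlap between the groups and did not pass the threshold. Trp53inp1 (ENSMUSG00000028211.11, chromosome 4, 11156431 to 11174379, plus strand) encodes a nuclear and autophagy-related protein that enhances p53-dependent death and arrest. It stood at 180, 589 and 383 CPM in KO and at 84.8, 164 and 139 CPM in WT. Every KO library was above every WT library, but KO 1 exceeded WT 2 only narrowly. The fitted log2 fold change was 1.57 ± 0.45 (SE; adjusted p = 0.0936 in edgeR). In the Y-linked libraries, where 33.3% of all genes tested passed, the adjusted p-value was 0.00667. Over the 15 alternatives it ran from 0.00344 to 0.26.

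Bax, the pore-forming protein that permeabilises mitochondria in apoptosis, overlapped between the groups. Bax (ENSMUSG00000003873.11, chromosome 7, 45461697 to 45466898, minus strand) stood at 13.2, 17.0 and 8.17 CPM in KO and at 10.4, 11.9 and 11.3 CPM in WT. The KO libraries lay on both sides of WT, with KO 3 the lowest and KO 2 the highest of the 6. On the log2 scale the fold change was 0.19 ± 0.26 (SE; adjusted p = 0.669 in edgeR), and without KO 2 it was -0.06. All 6 Bax values were not whole numbers, which RSEM gives where reads match more than 1 gene, and Bax shares 915 nt of its range with the gene model Gm45808 on the same strand.

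Zmat3, a zinc-finger RNA-binding protein that regulates splicing and mRNA stability, had the smallest difference of the 10 genes. Zmat3 (ENSMUSG00000027663.12, chromosome 3, 32334792 to 32366014, minus strand) stood at 6.69, 7.36 and 4.92 CPM in KO and at 6.21, 7.10 and 7.40 CPM in WT. Only KO 3 lay outside the WT range. The log2 fold change was -0.12 ± 0.19 (SE; adjusted p = 0.711 in edgeR), and without KO 3 it was 0.03.

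Phlda3 and Eda2r were the least abundant of the 10 genes, and both overlapped between the groups. Phlda3 (ENSMUSG00000041801.5, chromosome 1, 135766119 to 135769136, plus strand) encodes a small pleckstrin-homology protein that competes with the kinase Akt for membrane lipid. It stood at 1.77, 1.31 and 0.212 CPM in KO and at 0.611, 0.309 and 0.492 CPM in WT, so KO 1 and 2 were above WT and KO 3 was below it. Its log2 fold change was 1.23 ± 0.72 (SE; adjusted p = 0.319 in edgeR). Eda2r (ENSMUSG00000034457.10, chromosome X, 97333840 to 97377216, minus strand) encodes a receptor of the tumour necrosis factor receptor family that binds an ectodysplasin ligand. It stood at 1.73, 3.62 and 0.212 CPM in KO and at 0.414, 0.868 and 0.192 CPM in WT. KO 3 was level with the lowest WT library, at 10 counts against 9, while KO 1 and 2 were above all WT libraries. The fitted log2 fold change was 1.91 ± 0.96 (SE; adjusted p = 0.254 in edgeR).

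Sesn1 went the other way. Sesn1 (ENSMUSG00000038332.13, chromosome 10, 41809935 to 41908424, plus strand) encodes sestrin 1, a stress-induced protein that restrains the growth kinase complex mTORC1 and that is also induced by FoxO factors. It stood at 9.61, 4.09 and 5.54 CPM in KO and at 16.9, 15.5 and 12.9 CPM in WT. Every KO library was below every WT library, and KO 1 was the nearest to WT. The mean was 6.41 ± 2.86 CPM in KO and 15.1 ± 2.06 CPM in WT (SD, n = 3 each). On the log2 scale the fold change was -1.23 ± 0.32 (SE; adjusted p = 0.0756 in edgeR). Over the 15 alternatives its adjusted p-value ran from 0.00351 to 0.245, and 4 of the 15 were under the threshold.

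**Figure D2:**
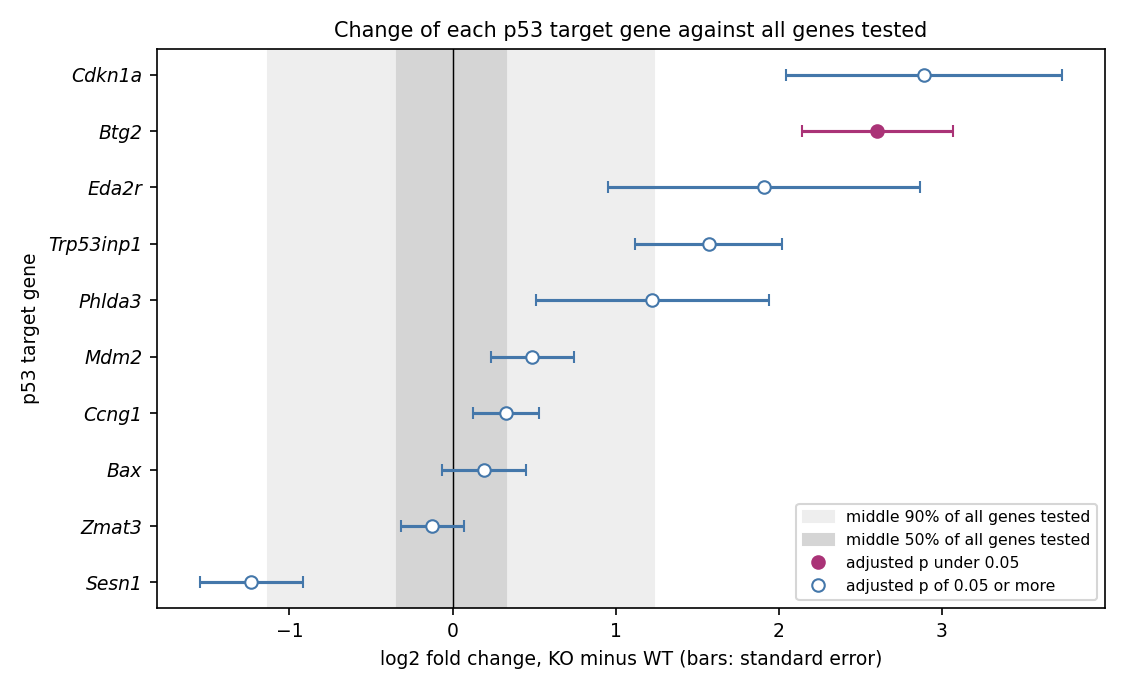
Log2 fold change of each p53 target gene (points, with bars of 1 standard error) over bands from the 25th to the 75th and from the 5th to the 95th percentile of all genes tested. Btg2, at 2.61, is the filled point that passed the threshold, and Cdkn1a, Eda2r and Trp53inp1 above and Sesn1 below also lie outside the wider band, which runs from -1.13 to 1.23.

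The genes differed in level as well as in change. Per kilobase of annotated exon, the WT means ran from 19.96 CPM per kb for Trp53inp1 and 10.4 for Ccng1 down to 0.302 for Phlda3 and 0.0834 for Eda2r. Bax followed Ccng1 at 7.12 CPM per kb, and then came Mdm2 at 4.23, Sesn1 at 3.79, Btg2 at 3.12, Cdkn1a at 1.32 and Zmat3 at 0.604. The WT ranges of neighbours in this order overlapped for Mdm2 with Sesn1 and for Sesn1 with Btg2, and were separate for the other 7 pairs of neighbours. In KO the mean level of Btg2 was 18.99 ± 11.9 CPM per kb and that of Cdkn1a 9.76 ± 11.5 CPM per kb (SD, n = 3 each).

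The 3 KO livers were unlike each other for these genes. KO 2 was the highest of the 3 KO libraries for 8 of the 10 genes, and KO 3 was the lowest for 6. KO 3 was the lowest of all 6 libraries for Ccng1, Bax, Zmat3 and Phlda3. The shares of all genes tested with KO 2 highest or KO 3 lowest were not counted, so these orders are not read as particular to the 10 genes. The coefficient of variation of Cdkn1a was 118% in KO and 25.8% in WT, and that of Btg2 was 62.5% and 12.1%. Across the 6 libraries the log2 CPM of Ccng1 and Bax had a Pearson correlation of 0.939 and that of Ccng1 and Eda2r 0.933, as a description of libraries that include this spread. The same coefficient was -0.971 for Sesn1 and Btg2 and -0.963 for Sesn1 and Trp53inp1. For Zmat3 it was 0.805 with Bax and 0.137 with Cdkn1a. All these coefficients are over both groups, so they include the difference between KO and WT. Sesn1 was below WT in every KO library and Btg2 and Trp53inp1 were above, so their negative coefficients partly restate that difference.

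Genes whose pattern was most like that of Cdkn1a were sought among tested genes with a mean of at least 10 CPM. The 5 with the highest Pearson correlation over the 6 libraries were Gm19950 at 0.990, Itga5 at 0.987, Cnnm3 and Tmem43 at 0.984 and Aen at 0.983. Aen, an exonuclease gene, is itself on the list of other p53 targets. It stood at 16.4, 35.2 and 18.5 CPM in KO and at 12.7, 12.1 and 14.7 CPM in WT, and its adjusted p was 0.141 in edgeR. All 5 were highest in KO 2, the library that sets most of the spread of Cdkn1a.

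The difference between KO and WT was then set out within the subsets of libraries. In the 4 Y-linked libraries, 4 of the 10 genes passed the threshold in edgeR, Btg2, Cdkn1a and Trp53inp1 as higher and Sesn1 as lower, where 33.3% of all genes tested passed. In the Xist pair, which sets 1 library beside 1 without any replication, the log2 ratio was 1.22 for Btg2, 1.2 for Cdkn1a, 1.09 for Trp53inp1 and -0.81 for Sesn1. These ratios have the same sign as those of the Y-linked libraries, which were 2.98, 2.73, 1.65 and -1.55. Phlda3 and Eda2r had the larger ratio in the Xist pair, 1.39 against 0.43 and 1.83 against 1.02. The test of the difference between the subsets, an interaction term in edgeR whose spread comes from the Y-linked libraries alone, passed the threshold for 0 of the 10 genes, where 2.90% of all genes passed. At an unadjusted p-value under 0.05 there was 1, Btg2, where 20.9% of all genes passed, and its adjusted p was 0.14 in edgeR. With no filter on low counts Btg2 passed, but the share of all genes passing in that refit was not counted. It is therefore not read as a difference between the subsets.

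**Figure D3:**
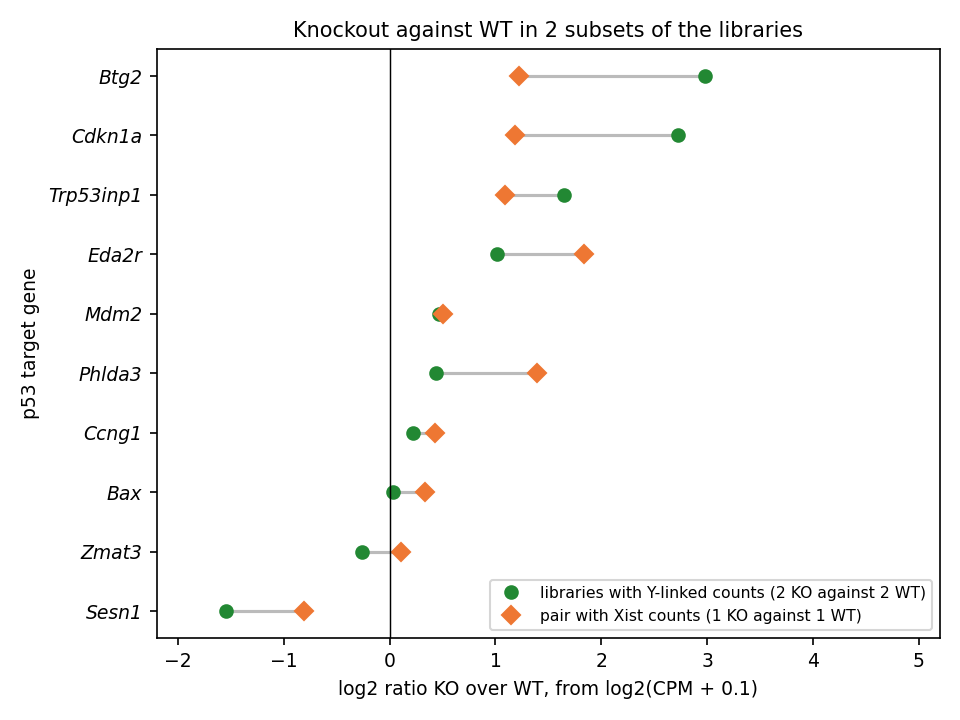
Log2 ratio of KO over WT, from log2(CPM + 0.1), for each p53 target gene in the 4 Y-linked libraries (circles, 2 against 2) and in the Xist pair (diamonds, 1 against 1). The sign is the same in both subsets for 9 of the 10 genes, and Zmat3, at -0.26 and 0.11, is the exception.

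The gene for p53 and its regulators were examined next. Trp53 stood at 15.7, 27.2 and 24.2 CPM in KO and at 17.3, 14.8 and 14.5 CPM in WT. KO 2 and 3 were above WT and KO 1 was within the WT range. The log2 fold change of Trp53 was 0.53 ± 0.21 (SE; adjusted p = 0.178 in edgeR). It was 0.80 in the Y-linked libraries and 0.72 without KO 1, with adjusted p-values of 0.00561 and 0.00953. In these settings 33.3% and 30.2% of all genes tested passed. Trp53 passed in only 2 of the 15 alternatives, over which its adjusted p-value ran from 0.00561 to 0.396. The log2 ratio of the Xist pair was -0.14. RNA does not report the protein, whose stability is the main point of control. Of the 18 tested genes of a list of 21 for the p53 family and its regulators, 0 passed the threshold and 8 had an unadjusted p-value under 0.05, beside 26.3% of all genes tested. DESeq2 placed 4 of the 18 past the threshold, 2 higher and 2 lower, beside 15.8% of all genes, and limma voom 0.

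Among the 18 tested genes of this list, 4 had every KO library above every WT library and 4 had every KO library below. The shares of all genes tested were 16.9% and 15.5%. The ribosomal proteins Rpl5 and Rpl11, which bind Mdm2 when ribosome assembly is disturbed, were higher in every KO library. Their log2 fold changes were 0.51 ± 0.12 and 0.42 ± 0.14 (SE; adjusted p = 0.0605 and 0.117 in edgeR). Mdm4, the partner of Mdm2, stood at 45.4 to 49.9 CPM in KO and 37.3 to 39.4 CPM in WT (adjusted p = 0.138). Atm and Hipk2, kinases that phosphorylate p53 after damage, were lower in every KO library, with log2 fold changes of -0.73 ± 0.23 and -0.77 ± 0.23 (SE; adjusted p = 0.114 and 0.0967). The genes Trp63, Trp73 and Cdkn2a had too few counts to be tested.

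A wider list of 33 other p53 targets was counted in the same fit. Of these 28 were tested, and Cpt1c, Lif, Psrc1, Ptprv and Trp53cor1 were not. Of the 28, 0 passed the threshold in edgeR, 0 in limma voom and 5 in DESeq2, all 5 higher, where 15.8% of all genes passed in DESeq2. Unadjusted p-values under 0.05 were found for 12 genes, each higher in KO, and the 12 genes with every KO library above every WT library stood against 0 with every KO library below. The corresponding shares of all genes tested were 26.3% for the unadjusted p-value in either direction, 16.9% above and 15.5% below. By direction, 2123 of all 14539 genes tested had an unadjusted p-value under 0.05 and were higher, and 1694 were lower. The median log2 fold change of the 28 genes was 0.44, with 0.47 in the Y-linked libraries and 0.24 in the Xist pair, and the signs in the subsets differed for 8 of the 28.

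The 4 of these targets with the smallest adjusted p-values were Plk3, Ddit4, Gdf15 and Ei24. Plk3, a stress-responsive polo-like kinase, stood at 39.7, 197 and 149 CPM in KO and at 18.6, 36.5 and 24.8 CPM in WT (log2 fold change 2.27 ± 0.57 SE; adjusted p = 0.0744 in edgeR). Ddit4, an inhibitor of mTORC1 signalling, stood at 6.30, 59.3 and 22.7 CPM in KO and at 3.55, 4.47 and 4.32 CPM in WT (adjusted p = 0.076). Both had KO 2 highest and KO 1 nearest to WT, the order also seen for Btg2 and Trp53inp1. Gdf15, a secreted stress cytokine, stood at 2.42, 7.11 and 2.40 CPM in KO and at 1.20 to 1.33 CPM in WT (adjusted p = 0.0932). Ei24, a membrane protein of autophagy, had another order, with KO 2 the lowest KO library at 224 CPM beside 299 and 297, and 180 to 190 CPM in WT (adjusted p = 0.097).

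**Figure D4:**
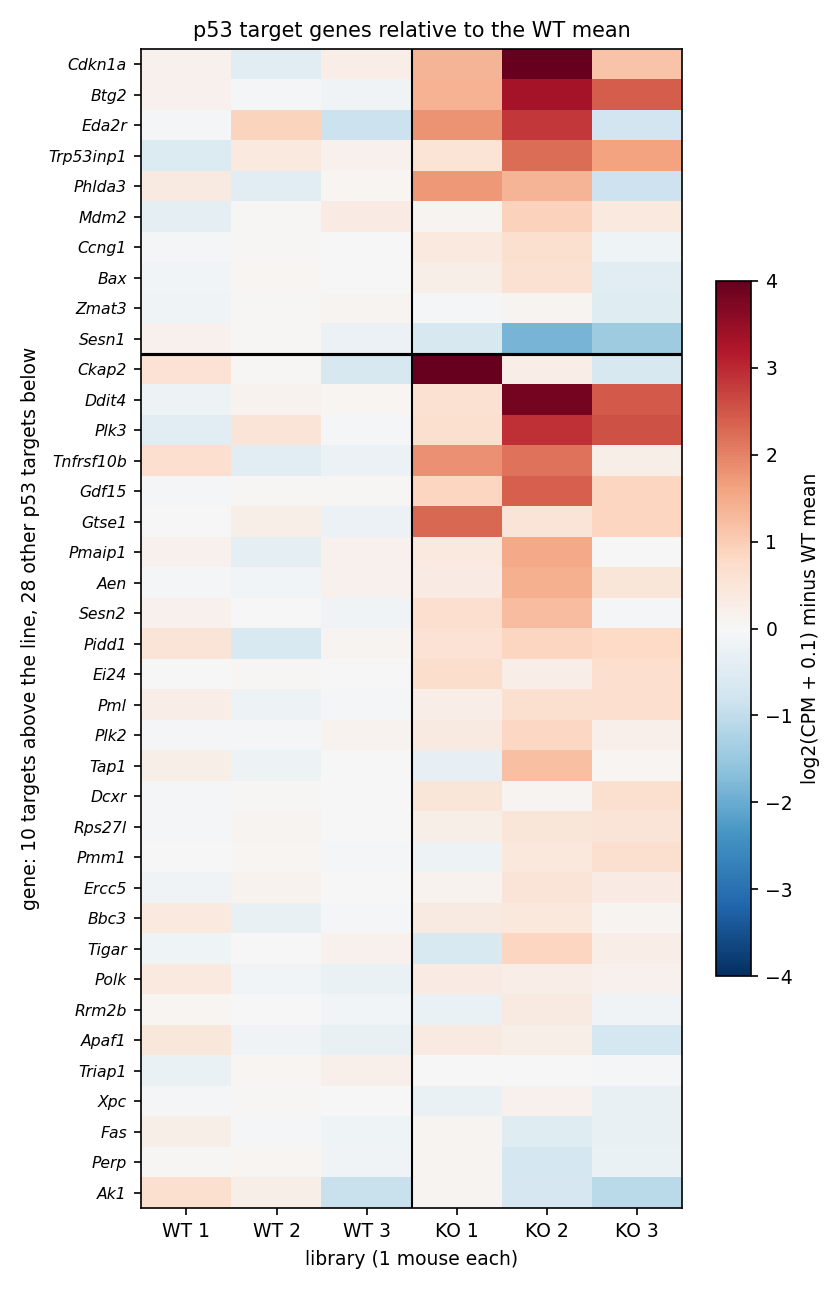
Log2(CPM + 0.1) minus the WT mean, by library, for the 10 p53 target genes (above the line) and the 28 tested genes of the wider list (below it), each sorted by log2 fold change, with red above and blue below the WT mean. KO 2 is the highest of the 6 libraries for 7 of the 10 genes and for 15 of the 28.

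Relatives of the members gave a further comparison. Of 18 tested paralogs among 22 listed, 0 rose and 1 fell in edgeR, beside 2.15% and 1.22% of all genes tested. The one that fell was Trp53inp2, the relative of Trp53inp1 that acts in autophagy. Trp53inp2 stood at 97.8, 71.1 and 69.6 CPM in KO and at 181, 206 and 224 CPM in WT, a fall of -1.36 ± 0.19 on the log2 scale (SE; adjusted p = 0.0226 in edgeR). Its groups did not overlap. The call was lost without KO 2, KO 3, WT 2 or WT 3, with adjusted p-values of up to 0.14. Tob1, an antiproliferative relative of Btg2, was at 109 to 141 CPM in KO and 79.7 to 103 CPM in WT (log2 fold change 0.43 ± 0.17 SE; adjusted p = 0.166). Tnfrsf19, a relative of Eda2r, was at 2.84 to 3.53 CPM in KO and 4.51 to 11.8 CPM in WT (adjusted p = 0.153).

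The BCL2 family, which decides whether Bax opens the mitochondrial membrane, was next. Of its 14 tested genes among 15 listed, 0 rose and 1 fell in edgeR, beside 2.15% and 1.22% of all genes tested. Bid, a link between death receptors and Bax, stood at 6.69, 7.56 and 5.79 CPM in KO and at 10.9, 11.5 and 11.4 CPM in WT, a fall of -0.75 ± 0.15 on the log2 scale (SE; adjusted p = 0.0465 in edgeR). It kept this call without KO 1 and lost it when any other single library was left out, with adjusted p-values of up to 0.218. The death-promoting members Bik and Bmf and the Bax relative Bok were also lower in every KO library, with log2 fold changes of -1.52 ± 0.37, -2.30 ± 0.60 and -1.42 ± 0.44 (SE; adjusted p = 0.0683, 0.0773 and 0.106). Of the 14 genes, 4 had every KO library below every WT library and 0 had every one above. The shares of all genes tested were 15.5% and 16.9%. The list was split, with 7 genes higher and 7 lower in KO and a median log2 fold change of 0.01. Bcl2a1b was among the higher genes, by 0.78 on the log2 scale, but its groups overlapped and edgeR gave it an adjusted p of 0.272. Death-promoting members were not all lower. In the Y-linked libraries Pmaip1, Bbc3 and Bcl2l11 had log2 ratios of 0.84, 0.46 and 0.86. Their ratios in the Xist pair, which has no replication, were 0.23, -0.02 and -0.54.

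Lists for DNA repair, the cell cycle and the integrated stress response give the surroundings of the p53 targets. Of 18 DNA repair genes, 1 rose and 1 fell in edgeR, beside 2.15% and 1.22% of all genes tested. In limma voom 0 rose and 1 fell, where 2.97% of all genes passed in either direction. In DESeq2 2 rose and 1 fell, where 15.8% of all genes passed. The 2 genes called in edgeR encode the subunits of the Ku dimer that binds broken DNA ends. Xrcc6 stood at 23.1 to 26.5 CPM in KO and 16.1 to 16.5 CPM in WT (log2 fold change 0.58 ± 0.11 SE; adjusted p = 0.0446 in edgeR), and Xrcc5 at 14.6 to 16.5 CPM in KO and 23.8 to 25.1 CPM in WT (-0.68 ± 0.11 SE; adjusted p = 0.0318). Both calls were kept without KO 1 and lost when any other single library was left out, with adjusted p-values of up to 0.178 for Xrcc5 and 0.213 for Xrcc6. Brca1, a gene of homologous recombination repair, stood at 3.14, 5.69 and 6.66 CPM in KO and at 1.70, 0.636 and 0.428 CPM in WT (log2 fold change 2.48 ± 0.56 SE; adjusted p = 0.0607).

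Of 25 tested cell cycle genes among 28 listed, 0 passed the threshold in edgeR, 0 in limma voom and 4 in DESeq2, and 7 had an unadjusted p-value under 0.05 in edgeR. The DESeq2 and unadjusted shares were near those of all genes tested, 15.8% and 26.3%. All 7 were higher in KO, where 2123 of all 14539 genes tested had such a p-value and were higher. By sign, 21 of the 25 genes were higher, beside 7410 of all 14539. The median log2 fold change of the 25 genes was 1.06, above the 0.86 of the 10 p53 targets, and 0.01 for all genes tested. Pcna, the clamp of the replication machinery and a p53 target in other settings, was at 32.2 to 44.0 CPM in KO and 19.8 to 25.1 CPM in WT (log2 fold change 0.77 ± 0.16 SE; adjusted p = 0.052 in edgeR). Cdk1, the kinase of mitotic entry, was at 6.47, 2.45 and 2.84 CPM in KO and 1.02 to 1.12 CPM in WT (adjusted p = 0.0578). The median log2 ratio of the 25 genes was 1.62 in the Xist pair and 0.04 in the Y-linked libraries. The 10 p53 targets had medians of 0.79 and 0.45 in the same subsets. The signs in the subsets differed for 11 of the 25 cell cycle genes, and Pcna and Cdk1 were not among the 11.

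Of 13 genes of the integrated stress response, 1 rose and 0 fell in edgeR, beside 2.15% and 1.22% of all genes tested. Atf5 rose, at 605 to 704 CPM in KO and 145 to 206 CPM in WT (log2 fold change 1.94 ± 0.20 SE; adjusted p = 0.0109 in edgeR). Without KO 3, WT 2 or WT 3 its adjusted p-value was 0.0592, 0.102 and 0.104. The next 4 by adjusted p-value did not pass. Asns, which makes asparagine, stood at 14.0, 47.5 and 43.7 CPM in KO and at 0.651, 4.55 and 7.16 CPM in WT (adjusted p = 0.083), and Fgf21, a secreted metabolic hormone, at 3.14, 9.25 and 1.72 CPM in KO and at 1.44, 0.424 and 0.877 CPM in WT (adjusted p = 0.103). Every KO library, KO 1 included, was above WT for both. This held for 3 of the 13 genes, beside 16.9% of all genes tested. The stress factors Atf3 and Ddit3 were highest in KO 2, then in KO 3, and KO 1 was within the WT range. Atf3 stood at 1.70, 19.6 and 8.11 CPM in KO and at 1.37 to 1.87 CPM in WT (adjusted p = 0.1), and Ddit3 at 2.90, 14.9 and 6.26 CPM in KO and at 2.7 to 3.16 CPM in WT (adjusted p = 0.147). Over all 6 libraries 12 of the 13 genes were higher in KO. Their median log2 fold change was 1.28, beside 0.86 for the 10 p53 targets and 0.01 for all genes tested. The median log2 ratio of the 13 genes was 1.69 in the Y-linked libraries and 0.08 in the Xist pair. The part of these genes in the difference of Cdkn1a or Btg2 was not tested.

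Markers of other cells were counted because bulk liver mixes cell types, and fewer cells of a type cannot be told apart from less RNA per cell. Endothelial markers had every KO library below every WT library for 8 of 9 genes, beside 15.5% of all genes tested, with a summed level of 110 to 177 CPM in KO and 212 to 292 CPM in WT, and 0 of the 9 passed the threshold. The sums were 106 to 260 against 195 to 436 CPM for 9 stellate markers, 108 to 235 against 145 to 199 CPM for 10 macrophage markers and 4.99 to 11.2 against 8.89 to 11.1 CPM for 8 lymphocyte markers. Neutrophil markers were near 0, with 3 of 6 tested, a sum of at most 2.04 CPM and Ly6g at 0 counts in all 6 libraries. The sum of 8 bile duct markers was 70.1 to 149 CPM in KO and 54.1 to 92.5 CPM in WT. Prom1, named after its values were seen, was the 1 bile duct marker that passed the threshold, beside 3.37% of all genes tested. It stood at 39.2 to 68.4 CPM in KO and 1.08 to 6.98 CPM in WT (adjusted p = 0.0442 in edgeR, and up to 0.178 without KO 2, KO 3, WT 2 or WT 3). Sums are over the tested genes of each list. The part of these markers in the values of the p53 targets was not tested.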

How the data were processed

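Per the labels' protocols, TruSeq mRNA libraries were made from total liver RNA and sequenced in 1 pool on a NextSeq. The authors deposited 1 table of expected counts, which are estimated read numbers per gene. The submitters' processing notes name bcl2fastq 2.17, cutadapt 1.18, STAR 2.7.0f and RSEM 1.3.1 and the build mm9. All 55450 gene identifiers, with versions, were found in GENCODE release M21 for GRCm38, a later build than mm9, so positions and exon lengths here are GRCm38 values from that annotation. The use of strand is not given in the sources used here, so counts of overlapping genes are uncertain.

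Columns were matched to samples by the descriptions, and groups and replicate numbers come from the titles. Expected counts were rounded, genes were kept by filterByExpr, and knockout was compared with WT by edgeR 4.0.16 (R 4.3.3), with trimmed mean of M-values scaling, the quasi-likelihood test and Benjamini-Hochberg adjustment over 14539 genes. Each SE was derived from the F statistic, as |log2 fold change| over its root. Correlations use log2 CPM with a prior count of 2. Subset ratios use an offset of 0.1 CPM. DESeq2 1.42.0 and limma 3.58.1 were alternatives. The scripts were tested on simulated data with the spread of these data. Of 97 simulated 2-fold changes 10.3% passed the threshold, and of 99 simulated 4-fold changes 73.7%. A gene that did not pass is therefore not shown to be unchanged. Alternatives were another scaling, filter or tool, a replicate block, the Xist or Y-linked state as a term, the 4 Y-linked libraries alone and leaving out each library. No pair of libraries agreed within sampling noise, as the lowest chi-square per degree of freedom was 31.6.

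The members and all gene lists were chosen with earlier results of these data known. Genes named besides the members are Stk11, Trp53, those past the threshold in each of 7 other lists, up to 4 more per list by adjusted p-value, and the 5 most correlated with Cdkn1a. Promoter windows come from RefSeq (GRCm38.p6). A count of 3 corresponds to 0.0515 to 0.0641 CPM.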

Additional observations from a re-analysis of the deposited data

Results flagged for a closer look

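An interaction of KO with the Xist or Y-linked state passed the threshold for 2.90% of all genes tested. Also past it, but not named in the report, were 2 of 25 cell cycle genes and 1 of 13 genes of the integrated stress response. Among the genes named in the report, 1 passed. This was Brca1, with an interaction adjusted p of 0.0485 (edgeR). Its log2 ratio of KO over WT was 3.33 in the Y-linked libraries and 0.85 for the Xist pair, in which each group is 1 library. The spread in this fit comes from the 4 Y-linked libraries alone and the Xist pair is assumed to vary like them, so the p-value does not establish that the KO effect differs. All 3 KO libraries were above all 3 WT libraries for Brca1. Groups of 3 are too small for a check of single outlying samples.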

How the results depend on the processing

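The count of all genes past the threshold was 490, and it was 771 with no filter on low counts, 2290 in DESeq2, 1504 with the Xist or Y-linked state as a term and 4847 in the 4 Y-linked libraries. With the replicate block it was 105, and the count of p53 targets past the threshold fell from 1 to 0. The design states no pairing, so same-numbered mice were not treated as pairs, although KO 1 and WT 1 share the Xist state. Same-numbered mice gave correlations of deviations of 0.178, 0.0443 and 0.0679. Leaving out each library gave 6 to 4473 genes and 0 to 4 of the 10 p53 targets. The count of p53 targets was 4 in DESeq2 (where 15.8% of all genes passed), 0 in limma voom (2.97%), 3 with the state as a term (10.3%) and 4 in the Y-linked libraries. These were Btg2, Cdkn1a, Sesn1 and Trp53inp1, without Cdkn1a where 3 passed. The same 4 passed without KO 1 (30.2%). The interaction count of 0 became 1 with no filter, a refit in which the share of all genes passing was not counted. Of 149 alternative values of the 10 genes, 2 changed sign, Bax without KO 2 and Zmat3 without KO 3. Leaving out 1 library gave log2 fold changes of -0.0607 to 0.432 for Bax and -0.239 to 0.0269 for Zmat3. Scaling by library size alone moved the median of all genes by 0.05 on the log2 scale and gave 380 higher and 131 lower calls in place of 313 and 177. The cause of these changes was not tested. Eda2r had no value with at least 10 counts required in every library. The lowest libraries held 10 counts of Phlda3 and 9 of Eda2r.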
